A study of Mus musculus with 4 samples.

Results

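The subunits of the glutamate and GABA receptors were examined in spatial RNA sequencing of coronal sections through whole wild-type mouse heads. The set was every gene whose symbol begins with Gria, Grin, Grik, Grid, Grm, Gabr or Gabbr and ends in a subunit number, with or without a letter, so the choice used names and no measured value. It held 43 of the 19465 genes in the count tables. Of these, 38 had at least 100 unique molecular identifiers (UMIs, each 1 captured molecule) over all tissue spots and are described here, 25 of them glutamate and 13 GABA receptor subunits. The other 5 were only counted, with 89 UMIs for Grm6, 57 for Gabrg1, 20 for Gabrr3, 9 for Gabrr1 and 2 for Gabra6. The described members nearest to the minimum were Gabrg3 with 259 UMIs and Gabrr2 with 288.

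The heads came from wild-type C57BL/6J embryos at embryonic day 14.5 (E14.5) and E15.5, with no transgene or treatment, and were fixed in formalin and embedded in paraffin. Visium, an array of barcoded spots that each lie under a small patch of tissue with several cells, gave 4 libraries, 1 for each capture area. Each stage had 2 areas, one with the lone section of replicate 1 and one with the sections of replicates 2, 3 and 4 side by side. The labels name no embryo or litter behind a replicate number, so the p-values below measure the spread between areas, which may be partly technical.

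Fast excitation in the brain runs through ionotropic glutamate receptors, which are tetramers of AMPA (Gria), NMDA (Grin) or kainate (Grik) subunits, with the delta subunits (Grid) as synaptic relatives. Metabotropic glutamate receptors (Grm) and the GABA-B receptor (Gabbr1 with Gabbr2) signal through G proteins. GABA-A receptors (Gabr) are pentameric chloride channels, mostly of alpha, beta and gamma subunits, and in the fetal brain GABA can depolarise young neurons. Subunits such as Grin2b are known to be made in the embryonic brain before most synapses form.

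In all, 6357 tissue spots with 281039627 UMIs were used. The E14.5 replicate 1 area was shallow, with a median of 6752 UMIs per spot against 45058.5 to 64051 in the other 3 areas, and 399 of its 1106 spots fell into low-depth regions. Spots were grouped by expression with the receptor and pathway genes held out, and a region is named here by its leading genes. The brain comprised 1337 spots with 63523280 UMIs in 4 regions: Neurod6/Neurod2, Nkx2-1/Tmem130, Prdm12/Ecel1 and Ttr/Mlc1. The other tissue comprised 4079 spots with 204917750 UMIs in 11 regions. Between them, 273 spots at the border of the brain and 668 low-depth spots were left out. One E15.5 section held no brain spots, which left 7 sections of 8 with brain. In the E15.5 area of replicates 2, 3 and 4 the tissue formed only 2 connected pieces. Its 3 sections were therefore cut by clustering spot positions, and their limits are assumed. The section without brain spots lies in that area. The areas shared 540 to 1388 spot barcodes in pairs, since the arrays use the same barcode positions.

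**Figure D1:**
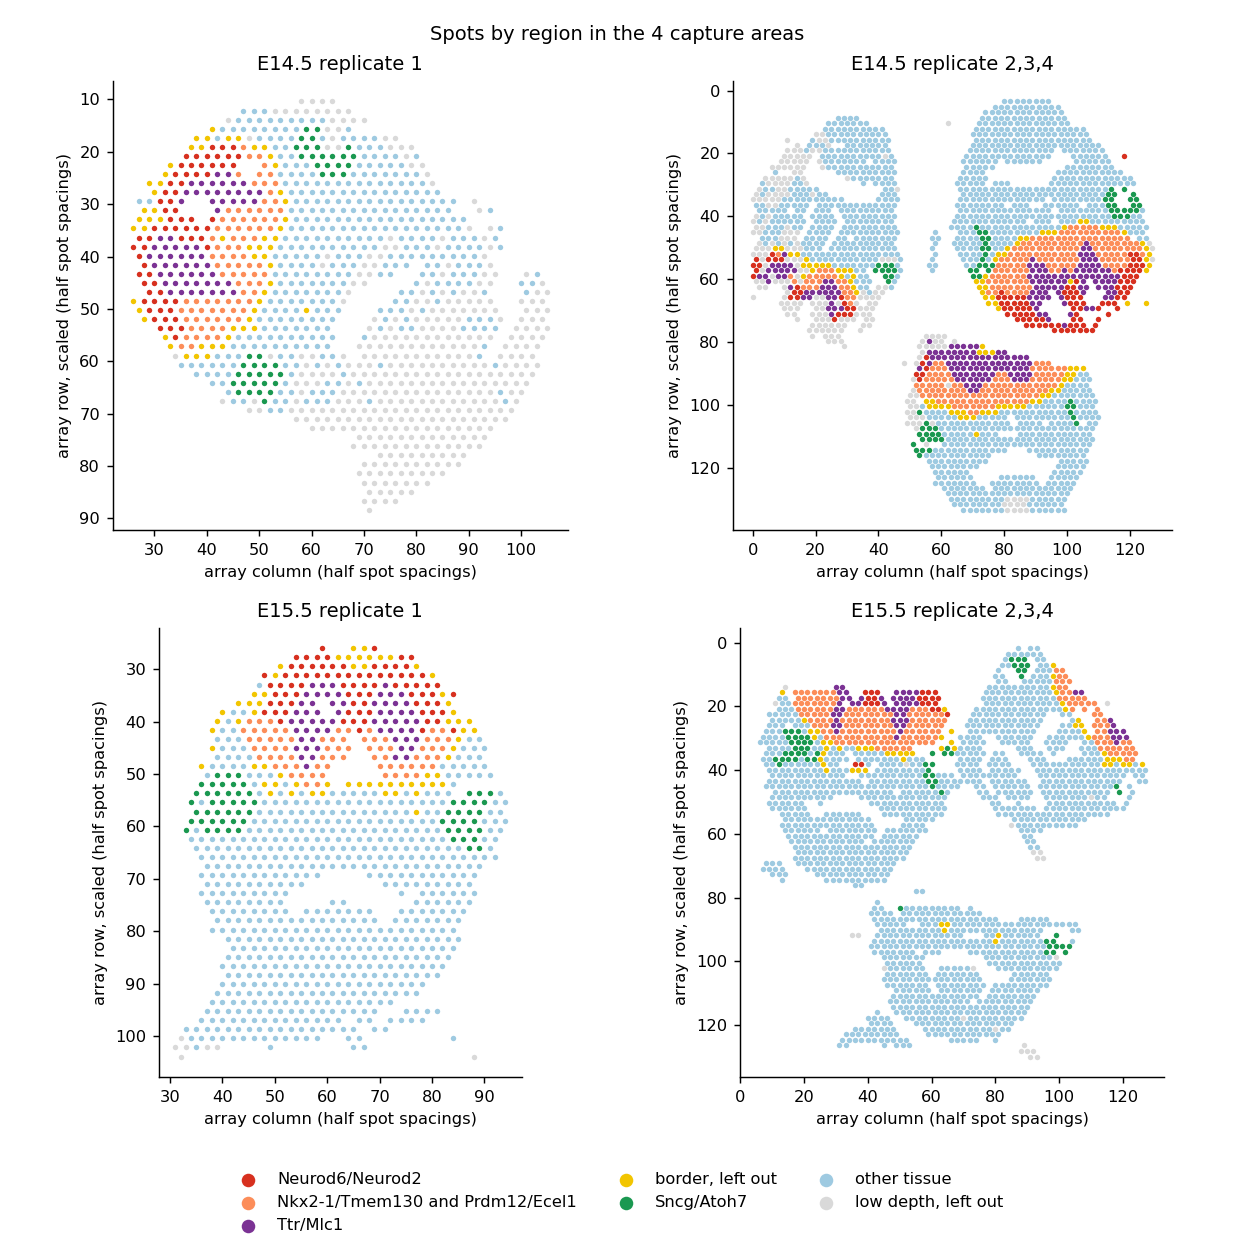
Each point is a tissue spot at its place on the array, with the array column and the scaled array row as axes, in units of which 2 make the spacing between neighbouring spots, and the 4 panels are the capture areas. Red, orange and purple spots are the 3 brain zones (Neurod6/Neurod2, the Nkx2-1/Tmem130 and Prdm12/Ecel1 regions together, and Ttr/Mlc1), yellow spots the border, green spots the Sncg/Atoh7 region of the eye, light blue spots the other tissue and grey spots the low-depth regions, which fill much of the E14.5 replicate 1 section.

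Levels are given as CPM, the UMIs of a gene per 1000000 UMIs summed over the spots of a region. Capture differs between genes in this assay, so levels were compared between regions and not between genes. Unless another order is named, 4 values in a row stand for E14.5 replicate 1, E14.5 replicates 2, 3 and 4, E15.5 replicate 1 and E15.5 replicates 2, 3 and 4. Fold changes are on the log2 scale with their standard errors, from edgeR's quasi-likelihood test with the area as a block, and a gene was called at a Benjamini-Hochberg adjusted p under 0.1 over all genes tested. In sums over spots, fewer cells of a type and less RNA per cell cannot be told apart.

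The members lie throughout the genome, and 3 of their loci are shown with sequence. Grik3, a kainate subunit, lies at chr4:125490700-125714173, plus strand, Grin3b, an NMDA subunit, at chr10:79970715-79977190, plus strand, and Grm2, a presynaptic metabotropic receptor, at chr9:106643095-106656082, minus strand (GRCm38). Sequence before the transcription start was read from RefSeq promoters (GRCm38.p6), of which the table held 29 of the 43 members. The promoters of Grik3 and Grin3b are shown because these genes stood near opposite ends of the brain contrast, with their CG dinucleotides in capitals. They were chosen after the values were seen, and Grik3 had the most CG dinucleotides of the 29, 50 over the whole promoter, where Gria2, with a larger fold, had 26. That of Grm2 is shown because it alone among the 29 held the RE1 element TTCAGCACC, one portion of the sequence bound by the repressor REST, here in capitals. Each is the 250 bases before the start, on the strand of the gene: chr4:125490446-125490695 for Grik3, chr10:79970474-79970723 for Grin3b and chr9:106656110-106656359 for Grm2.
Grik3: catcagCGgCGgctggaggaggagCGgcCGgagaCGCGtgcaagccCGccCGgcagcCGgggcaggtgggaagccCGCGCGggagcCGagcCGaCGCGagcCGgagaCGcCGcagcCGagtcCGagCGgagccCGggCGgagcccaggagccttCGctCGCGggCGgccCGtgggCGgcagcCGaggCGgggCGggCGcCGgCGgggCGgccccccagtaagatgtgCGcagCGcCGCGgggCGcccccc
Grin3b: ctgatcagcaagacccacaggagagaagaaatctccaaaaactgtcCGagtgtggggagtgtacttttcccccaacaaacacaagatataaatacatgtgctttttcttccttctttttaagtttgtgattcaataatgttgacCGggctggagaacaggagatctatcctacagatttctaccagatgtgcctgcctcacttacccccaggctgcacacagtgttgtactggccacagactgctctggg
Grm2: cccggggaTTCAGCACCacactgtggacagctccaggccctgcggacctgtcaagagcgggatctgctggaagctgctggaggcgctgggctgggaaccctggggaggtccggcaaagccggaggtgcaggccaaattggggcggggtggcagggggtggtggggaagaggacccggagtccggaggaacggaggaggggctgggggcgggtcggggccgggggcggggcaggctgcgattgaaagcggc
The stretch of Grik3 held 42 CG dinucleotides and that of Grin3b held 2. Over whole promoters of 300 bases, which include 50 bases past the start, the 29 members held 0 to 50 CG dinucleotides with a median of 12.5, against a median of 7 over the 27025 genes of the table. The element, searched on both strands, stood in 117 of these genes, or 0.433%. These matches are letters in a window and show no binding.

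The first comparison asked which receptor subunits were higher in the brain than in the rest of the head. Of the 38 members, 33 were higher in brain and 2 were lower, where 38.2% of all 14809 genes tested were higher and 40.9% lower. An unadjusted p under 0.05 was reached by 32 of the members and 11277 of all genes, so some calls rest on a larger unadjusted p. The median log2 fold change was 1.82 over the members and -0.03 over all genes. Among the 25 glutamate receptor members 21 were higher and 2 lower, and among the 13 GABA receptor members 12 were higher and 0 lower. Taken section by section, 29 members had the higher level in brain in all 7 sections with brain spots. The sections come from only 4 capture areas, and the same count was not made over all genes.

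**Figure D2:**
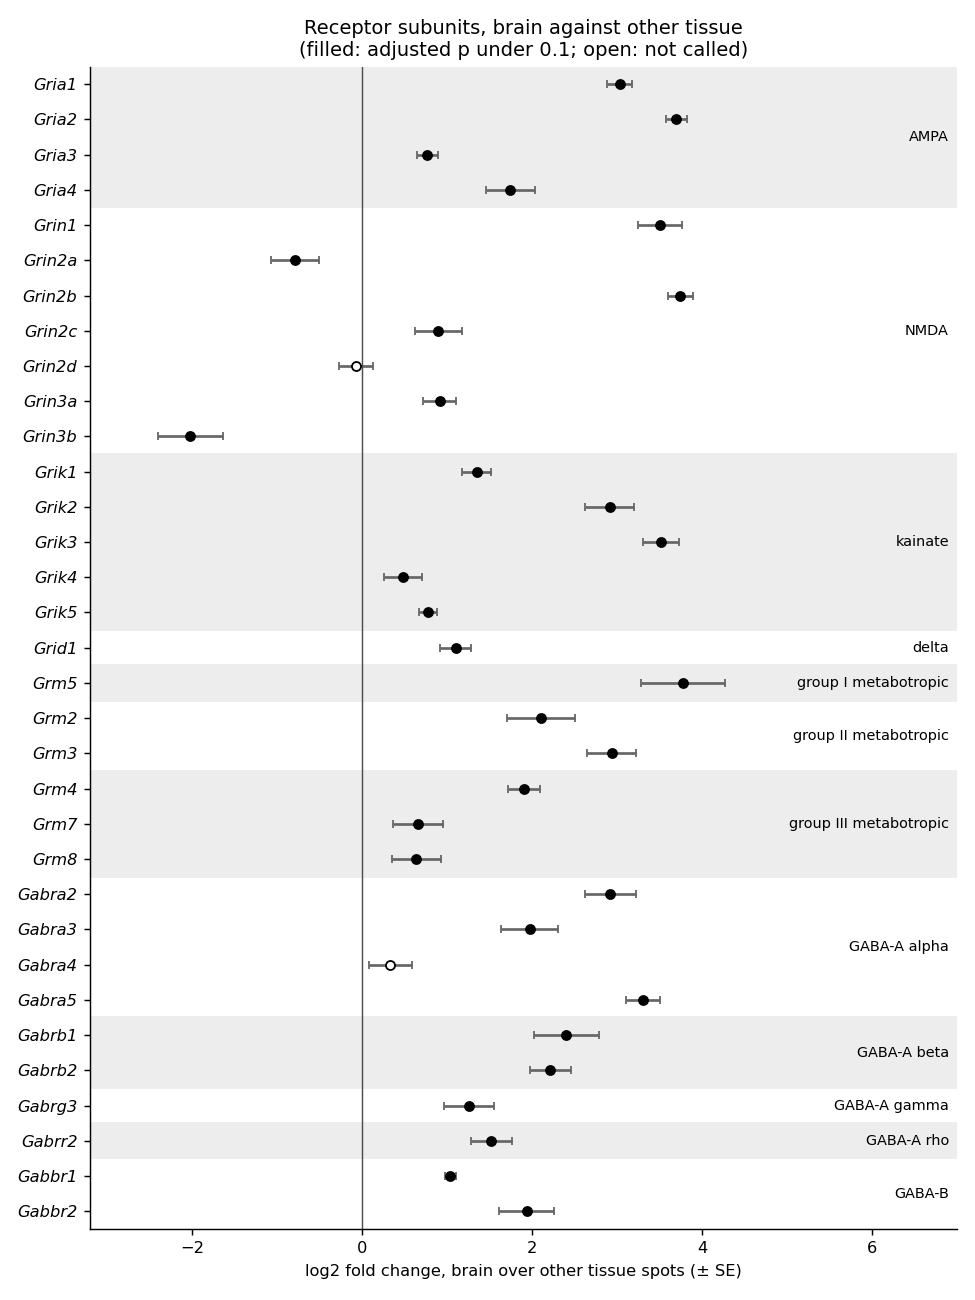
The horizontal axis gives the log2 fold change of 33 of the 38 described members, brain over other tissue spots, with its standard error as bars, and the members are grouped by receptor class. Filled points were called at an adjusted p under 0.1, and all lie to the right of 0 but for Grin2a and Grin3b, which were lower in brain.

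The AMPA receptor subunits were all higher in brain, 4 of 4. Gria2, the subunit that makes AMPA channels impermeable to calcium once its RNA is edited, was at 169.8, 102, 217 and 197 CPM in brain and at 14.9, 10.5, 19.3 and 12.5 CPM in other tissue. Every brain value was above every value of other tissue, and the E14.5 area with 3 sections had the lowest brain level. The difference was the highest of the class (log2 fold change 3.69 ± 0.13, adjusted p = 7.8e-06), or 12.9-fold. Gria3 had the lowest fold of the class, at 73.4, 46.8, 73.6 and 43.2 CPM in brain and 43.7, 32.9, 39.1 and 33.5 CPM in other tissue (log2 fold change 0.76 ± 0.12, adjusted p = 0.0016). The lowest brain value lay below the highest value outside, but within each area the brain was the higher. Gria1 and Gria4 lay between these (3.03 ± 0.15 and 1.74 ± 0.29).

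The NMDA receptor subunits were split. Grin1, the obligatory subunit, was at 36.1, 45.7, 49.7 and 72.7 CPM in brain and 4.32, 4.64, 7.65 and 3.66 CPM in other tissue (log2 fold change 3.5 ± 0.26, adjusted p = 5.4e-05). Grin2b, the glutamate-binding subunit typical of the embryonic brain, was at 263, 262, 302 and 283 CPM in brain and 24.5, 21.4, 32.4 and 15.9 CPM in other tissue (log2 fold change 3.74 ± 0.15, adjusted p = 9.3e-06), the highest fold of the class. For both genes the values of brain and other tissue did not overlap. Grin2a, the subunit known to replace much of Grin2b after birth, went the other way, at 2.91, 4.05, 2.05 and 6.05 CPM in brain and 5.35, 6.93, 7.95 and 6.66 CPM in other tissue (log2 fold change -0.79 ± 0.28, adjusted p = 0.042). Within each area its brain level was the lower, although the brain of the E15.5 area with 3 sections exceeded the other tissue of E14.5 replicate 1. The call for Grin2a was lost without E14.5 replicate 1 (-0.77), without E14.5 replicates 2, 3 and 4 (-0.86) and without E15.5 replicate 1 (-0.48).

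Grin3b, a glycine-binding subunit known from motor neurons, had the lowest fold of all members. It was at 0.379, 0.547, 0.342 and 0.123 CPM in brain, on 3, 18, 5 and 1 UMIs, and at 2.25, 1.37, 1.89 and 1.6 CPM in other tissue, on 13, 97, 94 and 126 UMIs (log2 fold change -2.02 ± 0.38, adjusted p = 0.0032). The groups did not overlap, and brain was lower in all 7 sections, but the brain level rests on few molecules. Its locus overlaps that of Tmem259, which was also measured, and reads of overlapping genes may not be fully separable. Grin3a and Grin2c were higher in brain (0.91 ± 0.19 and 0.89 ± 0.28), while Grin2d did not pass the test (log2 fold change -0.07 ± 0.20, adjusted p = 0.76).

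All 5 kainate receptor subunits were higher in brain. Grik3 was at 174, 194, 181 and 201 CPM in brain and 15.4, 16.6, 30.2 and 13 CPM in other tissue (log2 fold change 3.52 ± 0.21, adjusted p = 2.5e-05), or 11.4-fold. Its brain levels lay close together across stages and areas, at 188 ± 12 CPM (SD, n = 4). Grik4 had the lowest fold, at 6.44, 8.97, 6.36 and 15.4 CPM in brain and 5.53, 7.07, 7.83 and 7.29 CPM in other tissue (log2 fold change 0.48 ± 0.22, adjusted p = 0.093). Brain and other tissue overlapped for Grik4, E15.5 replicate 1 went against the difference, and the call was lost without any one of 3 areas, E14.5 replicate 1 (0.53), E14.5 replicates 2, 3 and 4 (0.46) or E15.5 replicates 2, 3 and 4 (0.21). Grik1, Grik2 and Grik5 were higher, with log2 fold changes of 1.35 ± 0.17, 2.91 ± 0.29 and 0.77 ± 0.10. The delta subunit Grid1, a synaptic relative of these channels, was higher (log2 fold change 1.1 ± 0.18, adjusted p = 0.0017).

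Grm5, a group I metabotropic receptor, which couples to phospholipase C, had one of the larger folds. It was at 12.4, 8.55, 13.9 and 23.8 CPM in brain and 2.07, 0.537, 2.51 and 0.624 CPM in other tissue (log2 fold change 3.77 ± 0.49, adjusted p = 6.0e-04). The values did not overlap, and in other tissue they rested on 12, 38, 125 and 49 UMIs. The group II receptors, presynaptic inhibitors of adenylyl cyclase, were both higher, with 2.93 ± 0.29 for Grm3 and 2.1 ± 0.40 for Grm2.

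The group III receptors, of which 3 were described, were all higher but unequally so. Grm4 was at 22.9, 34.1, 18.8 and 36.4 CPM in brain and 5.35, 10.2, 8.69 and 7.58 CPM in other tissue (log2 fold change 1.9 ± 0.19, adjusted p = 1.9e-04), without overlap. Grm8 had the lowest fold, at 4.55, 5.47, 3.69 and 9.5 CPM in brain and 5.35, 3.86, 3.53 and 3.3 CPM in other tissue (log2 fold change 0.64 ± 0.29, adjusted p = 0.086), and Grm7 was close to it (log2 fold change 0.65 ± 0.30, adjusted p = 0.086). Brain and other tissue overlapped for both Grm7 and Grm8, and brain had the lower level in E14.5 replicate 1 for both and also in E15.5 replicate 1 for Grm7, so that 2 of the 4 areas went against the difference for Grm7. Both calls were lost without E14.5 replicates 2, 3 and 4 (0.63 for Grm8 and 0.50 for Grm7) and without E15.5 replicates 2, 3 and 4 (0.27 and 0.35).

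Of the GABA-A alpha subunits, which set where in the cell and how strongly a receptor responds to GABA, Gabra5 had the highest fold, at 22.7, 27, 25.2 and 39.9 CPM in brain and 4.14, 2.74, 3.41 and 2.91 CPM in other tissue (log2 fold change 3.3 ± 0.20, adjusted p = 2.7e-05). Gabra2 followed at 35.5, 49.97, 33.2 and 58.9 CPM in brain and 6.91, 5.64, 9.35 and 4.61 CPM in other tissue (log2 fold change 2.92 ± 0.30, adjusted p = 2.0e-04). Both were separated in every area, by more than the spread between areas. Gabra4 had the lowest fold and did not pass the test, at 5.56, 4.47, 4.92 and 10.5 CPM in brain and 7.94, 3.66, 5.54 and 5.0 CPM in other tissue (log2 fold change 0.33 ± 0.26, adjusted p = 0.28). Gabra3 was higher in brain, with a log2 fold change of 1.97 ± 0.33.

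Gabrb1 and Gabrb2, which form the GABA site together with an alpha subunit, were higher in brain, with 2.4 ± 0.38 for Gabrb1. Gabrb2 was at 13, 8.12, 14.4 and 21.1 CPM in brain and 4.84, 1.78, 4.52 and 2.84 CPM in other tissue (log2 fold change 2.21 ± 0.24, adjusted p = 2.8e-04). Gabrg3 and the rho subunit Gabrr2, both near the detection minimum, were higher by 1.26 ± 0.29 and 1.52 ± 0.24. The loci of Gabra4 and Gabrb1 overlap, so their values may not be fully separate.

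The GABA-B receptor is a pair of unlike subunits. Gabbr1, which binds GABA, was at 429.8, 451, 499 and 439 CPM in brain and 241, 248, 277 and 209 CPM in other tissue (log2 fold change 1.03 ± 0.07, adjusted p = 3.1e-05), or 2.05-fold. The levels did not overlap, but those of other tissue were still 53.7% of those of brain. Gabbr2, which carries the receptor to the surface and couples it to G proteins, was at 19.1, 20.6, 18 and 24.4 CPM in brain and 11.1, 5.22, 6.98 and 3.19 CPM in other tissue (log2 fold change 1.93 ± 0.32, adjusted p = 0.0017).

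**Figure D3:**
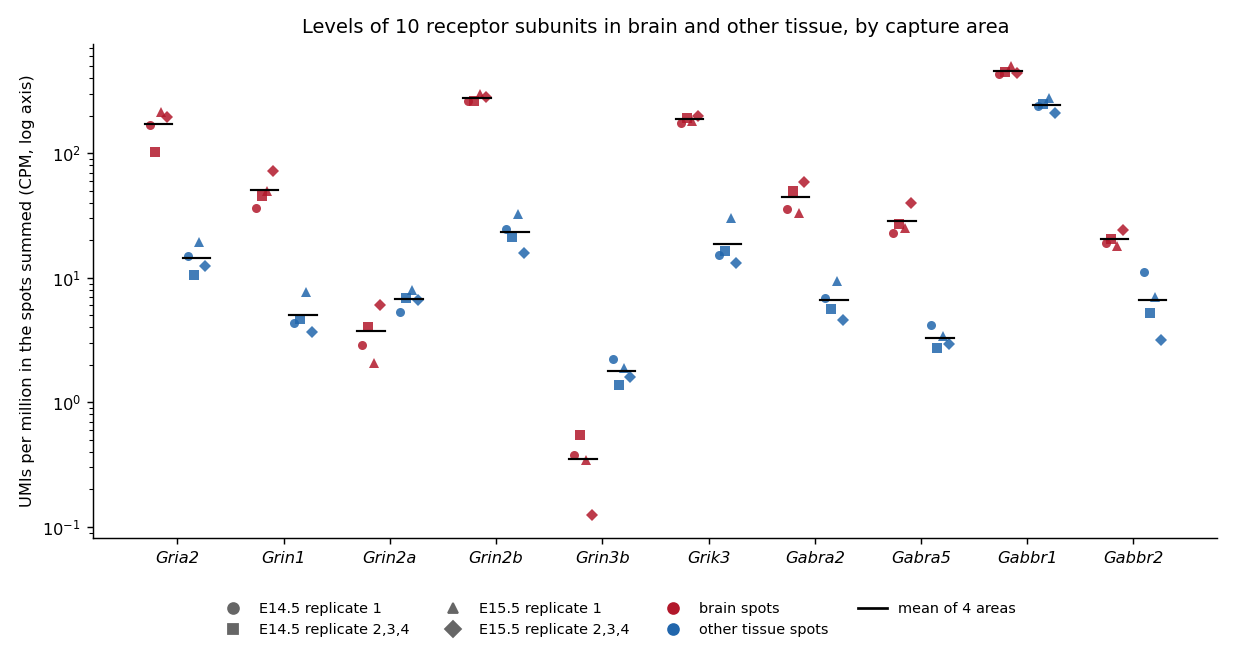
The level of 10 members in CPM, on a log axis, in brain spots (red) and other tissue spots (blue), with 1 symbol for each of the 4 capture areas and a bar for their mean. Red lies above blue in every area for 8 of the members, while Grin2a and Grin3b have blue above red, with Grin3b in brain between 0.123 and 0.547.

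The 8 pan-neuronal markers, all of them higher in brain, summed to 5864 to 7642 CPM in brain and 648 to 1527 CPM in other tissue, which holds the nerves, ganglia, retina and olfactory epithelium. The 6 retina markers summed to 145 to 685 CPM in other tissue and 3.01 to 63.5 CPM in brain. Markers were used to place the regions, so these sums and calls describe the regions and test nothing. Without the retina and olfactory regions, 34 members were higher and 2 lower. Neurod6 and Neurod2, transcription factors of cortical neurons, were at 3.36% and 3.44% of their brain level in other tissue. The members stood above these, with 8.36% for Gria2, 179% for Grin2a and 511% for Grin3b. With spots at the edge of a region left out and other tissue taken only far from the brain, the log2 fold changes of Gria2 and Grin2b were 3.91 and 3.90, as large as with all spots, while the calls for Grm7, Grm8 and Grik4 were lost and 30 members were higher.

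Within the brain, the second comparison set the neuron-rich spots (the Neurod6/Neurod2, Nkx2-1/Tmem130 and Prdm12/Ecel1 regions) against the Ttr/Mlc1 region. In the Ttr/Mlc1 region the 9 fixed markers of radial glia and progenitors summed to 2819 to 3417 CPM, against 994 to 1203 CPM in the neuron-rich spots, and the pan-neuronal markers to 3231 to 4200.1 CPM against 7459 to 8369.9 CPM. These markers took part in forming the regions, so the sums describe them and test nothing. The Ttr/Mlc1 region was not free of neurons. Choroid plexus markers summed to 12239.7 CPM there in the E14.5 area with 3 sections and to 1.05 to 2.34 CPM in the other 3 areas.

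Of 37 members tested, 32 were higher in the neuron-rich spots and 1 was lower, where 34.3% of all 12663 genes tested were higher and 33% lower. The median log2 fold change was 1.35 over the members and 0.03 over all genes. Without the E14.5 area with 3 sections, the only one with choroid plexus markers in number, 31 members were higher and 1 lower. Markers of tissues outside the brain were also higher in the neuron-rich spots, with 4 of 4 for cartilage (median log2 fold change 2.0), 3 of 3 for bone (1.68), 3 of 3 for lens (1.41), 4 of 4 for muscle (1.13), 4 of 5 for retina (1.21) and 3 of 4 for meninges and vessels (0.79). The cartilage markers summed to 274 to 1101 CPM in neuron-rich and 248 to 602 CPM in Ttr/Mlc1 spots, the bone markers to 45.8 to 217 CPM and 6.91 to 40.3 CPM, and the muscle markers to 13.7 to 109 CPM and 4.19 to 53.6 CPM. Their part in the result was not tested.

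Gabra5 was at 33.5, 37.8, 34 and 47.5 CPM in neuron-rich spots and 5.02, 7.55, 6.91 and 3.53 CPM in the Ttr/Mlc1 region (log2 fold change 2.45 ± 0.18, adjusted p = 4.4e-06), the largest fold of the set. Gabbr2 was at 28, 28.5, 24.5 and 29.3 CPM against 4.35, 6.62, 4.82 and 1.41 CPM (log2 fold change 2.37 ± 0.22, adjusted p = 1.7e-05). Both genes were several times higher in the neuron-rich spots of every area. Grin1 and Grm5 had log2 fold changes of 2.23 ± 0.11 and 2.23 ± 0.19.

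Gabbr1, the partner of Gabbr2, differed far less, at 464, 481, 534 and 458 CPM against 374, 395, 426 and 348 CPM (log2 fold change 0.24 ± 0.06, adjusted p = 0.0071). Grik3 did not pass the test, at 188, 207, 197 and 199.6 CPM against 151, 169, 149 and 207 CPM (log2 fold change 0.16 ± 0.08, adjusted p = 0.13). Nor did Grik2 (log2 fold change 0.21 ± 0.13, adjusted p = 0.18), Grm4 (log2 fold change 0.09 ± 0.11, adjusted p = 0.52) or Gabrr2 (log2 fold change -0.54 ± 0.36, adjusted p = 0.23). With errors of 0.08 to 0.36 on the log2 scale for these 4 genes, smaller differences were not detectable. Grik3 was called without TMM scaling, without the filter on low counts and without E15.5 replicates 2, 3 and 4. Grik2 was called without TMM scaling and without E15.5 replicate 1.

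Grin2c, an NMDA subunit known from cerebellar granule cells and glia, was lower in the neuron-rich spots, at 0.608, 1.71, 1.01 and 1.79 CPM against 3.35, 2.29, 4.19 and 0.706 CPM (log2 fold change -1.13 ± 0.46, adjusted p = 0.06). The E15.5 area with 3 sections went against this on 1 UMI in the Ttr/Mlc1 region, and the call was lost without E14.5 replicate 1 (-0.89) or E15.5 replicate 1 (-0.69).

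Further members were called higher in the neuron-rich spots. The log2 fold changes of the AMPA subunits Gria1, Gria2, Gria3 and Gria4 were 1.63 ± 0.09, 1.4 ± 0.07, 1.21 ± 0.13 and 1.06 ± 0.12. Those of the NMDA subunits Grin2a, Grin2b, Grin2d and Grin3a were 1.84 ± 0.37, 1.89 ± 0.07, 1.0 ± 0.31 and 1.28 ± 0.17. Grin2a, lower in brain than outside, was within the brain higher in the neuron-rich spots, which also held more of the bone, cartilage and muscle markers (medians of 1.68, 2.0 and 1.13), and the part of these tissues in it was not tested. Among kainate and delta subunits the log2 fold changes were 1.35 ± 0.13 for Grik1, 1.06 ± 0.22 for Grik4, 0.84 ± 0.07 for Grik5 and 1.58 ± 0.24 for Grid1. Among metabotropic receptors they were 1.59 ± 0.25 for Grm2, 1.35 ± 0.24 for Grm3, 1.56 ± 0.33 for Grm7 and 0.72 ± 0.27 for Grm8. Among GABA-A subunits they were 1.39 ± 0.13 for Gabra2, 1.69 ± 0.27 for Gabra3, 0.61 ± 0.28 for Gabra4, 1.87 ± 0.23 for Gabrb1, 1.94 ± 0.19 for Gabrb2 and 1.37 ± 0.53 for Gabrg3. DESeq2 did not call Grin2c, the member that was lower. Of the higher ones, Gabra4, Gabrg3 and Grm8 were not called with DESeq2, nor without E15.5 replicate 1 (0.64, 1.25 and 0.66) or without E15.5 replicates 2, 3 and 4 (0.33, 1.13 and 0.53).

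The third comparison set the dorsal brain, the Neurod6/Neurod2 region, against the ventral brain, the Nkx2-1/Tmem130 and Prdm12/Ecel1 regions together. The dorsal region held 67, 120, 82 and 23 spots in the 4 areas. The 6 fixed dorsal excitatory markers summed to 3847 to 5501 CPM in the dorsal and 464 to 1446 CPM in the ventral spots, and the 8 ventral GABAergic markers to 213 to 437 CPM and 928 to 1537 CPM. These markers took part in forming the regions, so the sums describe them and test nothing.

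Most receptor subunits were higher ventrally. Of 36 members tested, 29 were lower and 2 were higher in the dorsal spots, where 17.4% of all 12506 genes tested were lower and 17% higher. The median log2 fold change was -0.95 over the members and 0.03 over all genes. Without TMM scaling the split of all genes moved from 2127 higher and 2175 lower to 1546 higher and 2493 lower, and with sections in place of areas to 1254 higher and 2014 lower, while 2 members were still higher and 30 lower without TMM. The pan-neuronal markers summed to 6357 to 7071 CPM dorsally and 7881 to 8999 CPM ventrally, and 3 of the 8 were lower in the dorsal spots, with a median of -0.14. The cartilage markers summed to 88.8 to 2877 CPM dorsally and 560.1 to 1200.4 CPM ventrally, and the lens markers to 0.345 to 471 CPM and 0.491 to 2244 CPM. Of the markers tested, 5 of 5 for retina were lower dorsally (median -1.48), 4 of 4 for muscle (-0.82), 3 of 3 for lens (-1.71) and 3 of 4 for peripheral ganglia (-2.04). The peripheral ganglion markers summed to 4.18 to 31.4 CPM dorsally and 84.9 to 158 CPM ventrally, and the muscle markers to 6.02 to 73.7 CPM and 25.6 to 137 CPM. The part of neuron content and of neighbouring tissue in the results was not tested.

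The 2 members higher in the dorsal spots were AMPA subunits. Gria2 was at 260.4, 196, 303 and 349 CPM dorsally and 176, 107, 238 and 212 CPM ventrally (log2 fold change 0.68 ± 0.08, adjusted p = 3.5e-05). Gria3 was at 119, 87.9, 108 and 99.8 CPM dorsally and 63.9, 47.2, 60.7 and 45.9 CPM ventrally (log2 fold change 0.97 ± 0.09, adjusted p = 1.8e-06). Dorsal was the higher in every area for both, and for Gria3 the groups did not overlap. Their relatives went the other way, with Gria1 at 215, 235, 261 and 179.6 CPM dorsally and 371, 356, 440.1 and 380.5 CPM ventrally (log2 fold change -0.71 ± 0.08, adjusted p = 2.2e-05) and Gria4 lower dorsally with a log2 fold change of -1.13 ± 0.17. Of the 12 receptor classes, only the AMPA subunits had calls in both directions in this contrast.

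Grm4, a presynaptic group III receptor, was among the most ventral members, at 4.49, 12.9, 4.01 and 2.0 CPM dorsally and 51.6, 43.1, 41.6 and 41.2 CPM ventrally (log2 fold change -2.6 ± 0.26, adjusted p = 4.8e-06). The ventral level was at least 3 times the dorsal level in each area. Gabrg3 had the largest estimate (log2 fold change -2.72 ± 0.70, adjusted p = 0.011), on 0, 6, 0 and 0 UMIs dorsally and 7, 43, 12 and 19 ventrally. The 3 dorsal counts of 0 allow up to 1.04, 0.502 and 5.99 CPM (3 counts each), the last of which exceeds the ventral level of 3.07 CPM in that area. Grm8, Gabrb1 and Grin3a followed, with -2.54 ± 0.30, -2.41 ± 0.24 and -2.27 ± 0.24. Grin3a was at 5.53, 9.26, 4.52 and 7.98 CPM dorsally and 31.4, 27.1, 42.3 and 38.6 CPM ventrally, with no overlap.

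The kainate subunit Grik1 was at 9.67, 14.5, 9.7 and 16 CPM dorsally and 53.6, 53.2, 57.8 and 51.1 CPM ventrally (log2 fold change -2.14 ± 0.15, adjusted p = 1.8e-07). Its ventral level was steady, at 53.9 ± 2.83 CPM (SD, n = 4). Grik2, Grik4 and Grik5 were also lower dorsally (-0.64 ± 0.15, -1.78 ± 0.27 and -0.28 ± 0.08), whereas Grik3 did not pass the test, at 189.6, 208, 184 and 169.6 CPM against 186, 207, 216 and 202 CPM (log2 fold change -0.04 ± 0.08, adjusted p = 0.78). Over the dorsal, ventral and Ttr/Mlc1 zones the values of Grik3 ran from 149 to 216 CPM.

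Grin1 was lower dorsally (log2 fold change -1.06 ± 0.10, adjusted p = 1.9e-06), as were Grin2a and Grin2d (-1.84 ± 0.34 and -1.94 ± 0.38). Grin2b did not pass the test, at 345, 327, 388 and 315 CPM against 394, 365, 409 and 328 CPM (log2 fold change -0.06 ± 0.07, adjusted p = 0.54). The delta subunit Grid1 was lower dorsally, with a log2 fold change of -1.8 ± 0.18. So were the metabotropic receptors Grm5 (-1.97 ± 0.24), Grm3 (-0.53 ± 0.14) and Grm7 (-2.22 ± 0.38), while Grm2 did not pass the test (log2 fold change -0.39 ± 0.20, adjusted p = 0.18).

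Of the GABA-A members, Gabra2 was at 29.7, 36.1, 18.2 and 33.9 CPM dorsally and 75.2, 70.6, 80.8 and 69.7 CPM ventrally (log2 fold change -1.34 ± 0.16, adjusted p = 2.8e-05). The zones did not overlap. Gabra4, Gabra3 and Gabra5 were also lower dorsally, with log2 fold changes of -2.09 ± 0.34, -0.82 ± 0.28 and -0.82 ± 0.13. Smaller differences in the same direction were seen for Gabrb2 (-0.43 ± 0.16) and Gabbr2 (-0.57 ± 0.14). Gabbr1 and Gabrr2 did not pass the test (log2 fold change -0.14 ± 0.07, adjusted p = 0.21 and log2 fold change -0.53 ± 0.56, adjusted p = 0.54). DESeq2 did not call Gabra3 and Gabrb2 in this contrast. Leaving out E14.5 replicates 2, 3 and 4 lost the calls for Gabra3 (-0.80), Gabrb2 (-0.45) and Grm3 (-0.40), leaving out E15.5 replicate 1 those for Gabra3 (-0.67), Gabrb2 (-0.36) and Grik5 (-0.26), and leaving out E14.5 replicate 1 that for Grik5 (-0.23).

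**Figure D4:**
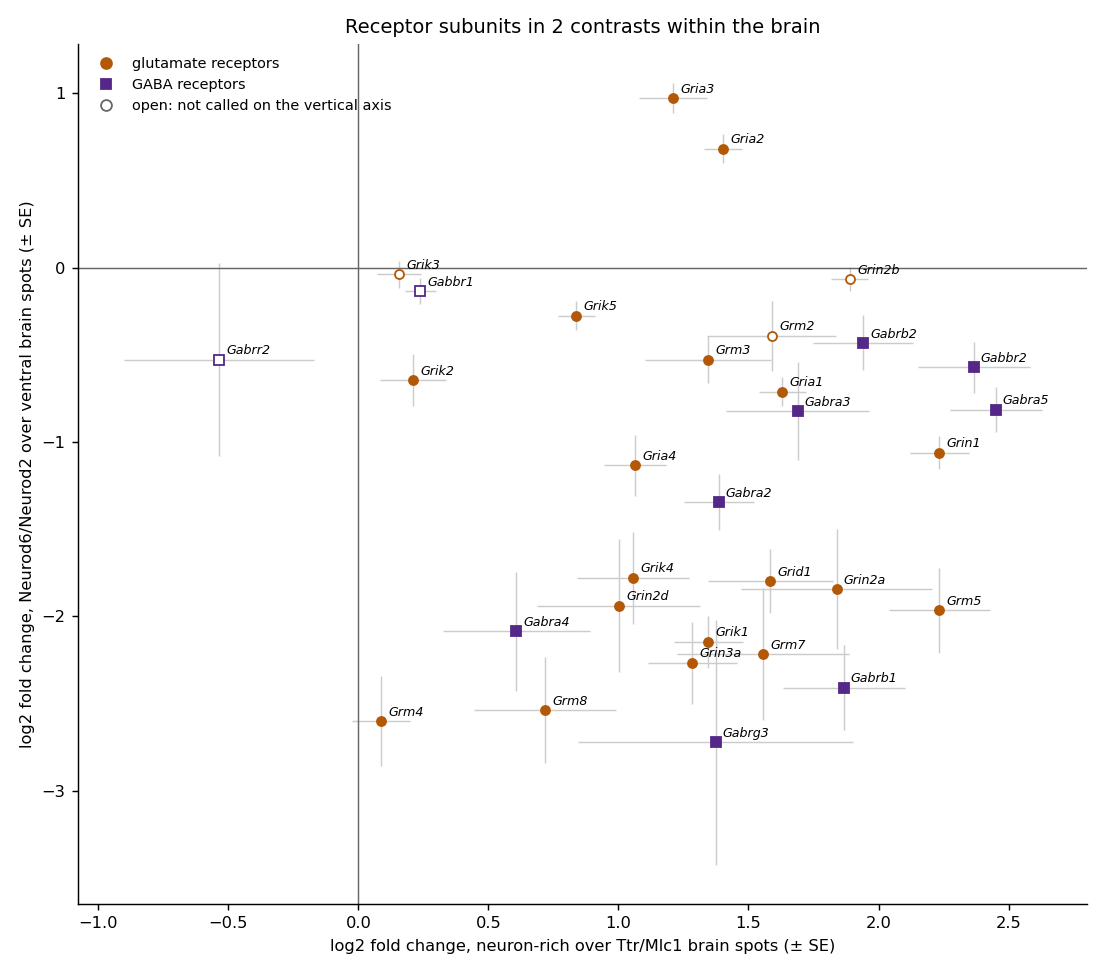
Each point is a member tested in both contrasts within the brain, with 5 members not drawn. The horizontal axis gives its log2 fold change, neuron-rich over Ttr/Mlc1 spots, and the vertical axis that of the dorsal Neurod6/Neurod2 region over the ventral regions, both with standard errors, with circles for glutamate and squares for GABA receptors and open symbols for members not called on the vertical axis. Gria2 (0.68) and Gria3 (0.97) are the filled points above 0, and most others lie to the lower right.

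Outside the brain, 13 of the 38 members reached or passed their brain level in at least 1 of the 11 regions in 3 or more areas. These made 35 pairs of a member and a region, of which 21 also held in 3 or more areas when spots at the edge of a region were left out. The Deup1/Reg3g, Matn1/Hapln1 and Krt77/Krtdap regions, with 4, 2 and 2 of the pairs, then had enough spots in only 2 areas. Pairs there could not reach 3 areas. The Crygd/Crygc region of the lens had values in too few areas even with all spots, so no member could pass the rule there. The choice of members here rests on these levels, so they are a description without a test. The rule was not applied to all genes, so these counts cannot be set against a share of all genes. The Sncg/Atoh7 region, whose leading genes mark the retina, held 7 of the members and the Slc26a7/Foxl2 region around the eye 6.

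In the Sncg/Atoh7 region Gabbr2 was at 32.1, 32.2, 33.4 and 25.3 CPM against 19.1, 20.6, 18 and 24.4 CPM in brain. All 4 areas had the higher level in this region. Grm2 was there at 21, 14.4, 17 and 8.59 CPM against 10.6, 9.22, 9.23 and 11.2 CPM in brain, the E15.5 area with 3 sections alone having the lower level there. Grin2c was at 3.7, 6.5, 9.08 and 5.42 CPM against 1.64, 1.92, 2.05 and 1.6 CPM, and was thus higher in the Sncg/Atoh7 region in each area. Grm7, Grik4 and Grm8 were at 8.34 ± 4.75 CPM (SD, n = 4), 11.9 ± 2.07 CPM (SD, n = 4) and 8.98 ± 2.51 CPM (SD, n = 4), against 4.35 ± 2.03 CPM (SD, n = 4), 9.3 ± 4.26 CPM (SD, n = 4) and 5.8 ± 2.57 CPM (SD, n = 4) in brain. Among regions with values in 3 or more areas, Grm2, Grm7 and Grin2c had their highest mean level in the Sncg/Atoh7 region. In the Slc26a7/Foxl2 region Grm8 and Grm7 were at 7.99 ± 0.451 CPM (SD, n = 4) and 4.85 ± 1.03 CPM (SD, n = 4).

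In the Krt17/Cyp26c1 region of the mouth, which carried oral epithelial and tooth markers, Gabra4 was at 23.1, 5.28, 12.1 and 10.1 CPM against 5.56, 4.47, 4.92 and 10.5 CPM in brain. The highest of these values, in E14.5 replicate 1, rested on 14 UMIs. In the Deup1/Reg3g region of the nose, which carried markers of multiciliated cells, Grin3a was at 20.9, 20.2, 34.3 and 23.6 CPM against 13.3, 17.9, 14.6 and 32.3 CPM in brain.

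The 2 members that were lower in brain were spread over many tissues. Grin2a was at 10.5, 7.28, 11 and 7.38 CPM in the Mmp13/Spp1 region, which carried bone markers, at 6.54, 9.81, 8.36 and 9.23 CPM in the Dpt/Tpsb2 region of the dermis and at 6.61, 7.85, 12.4 and 7.59 CPM in the Krt17/Cyp26c1 region. It reached its brain level in 8 of the 11 regions, all but the Sncg/Atoh7, Crygd/Crygc and Matn1/Hapln1 regions by the rule of 3 areas. The Crygd/Crygc region had values in too few areas to pass that rule at any level. Within the brain Grin2a was at 7.37, 6.29, 5.68 and 7.44 CPM ventrally and 2.07, 2.18, 1.17 and 0 CPM dorsally. The count of 0 in the E15.5 area with 3 sections allows up to 5.99 CPM. The dorsal counts of Grin2d and Grm7 in that area were also 0, with the same limit. The ventral levels lay near the lower end of those in these 3 regions, and the dorsal levels below them.

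Among regions with values in 3 or more areas, Grin3b was highest in the Mmp13/Spp1 region. It was there at 10.5, 3.01, 5.52 and 3.35 CPM on 7, 36, 34 and 50 UMIs, against 0.379, 0.547, 0.342 and 0.123 CPM in brain. The means, 5.6 ± 3.46 CPM (SD, n = 4) and 0.348 ± 0.174 CPM (SD, n = 4), differed 16.1-fold. In 9 other regions it also passed its brain level in 3 or more areas, at means of 0.492 CPM (Gfy/Ugt2a1) to 2.33 CPM (Krt77/Krtdap). Grin2d was at 7.51, 3.18, 4.87 and 5.63 CPM in the Mmp13/Spp1 region and at 4.25, 5.4 and 11 CPM in the Matn1/Hapln1 region of cartilage, which had too few spots in E14.5 replicate 1, against 3.66, 2.65, 2.6 and 5.43 CPM in brain. Its locus overlaps that of Kdelr1, as that of Grin3a overlaps Ppp3r2. Both genes of each pair were measured.

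**Figure D5:**
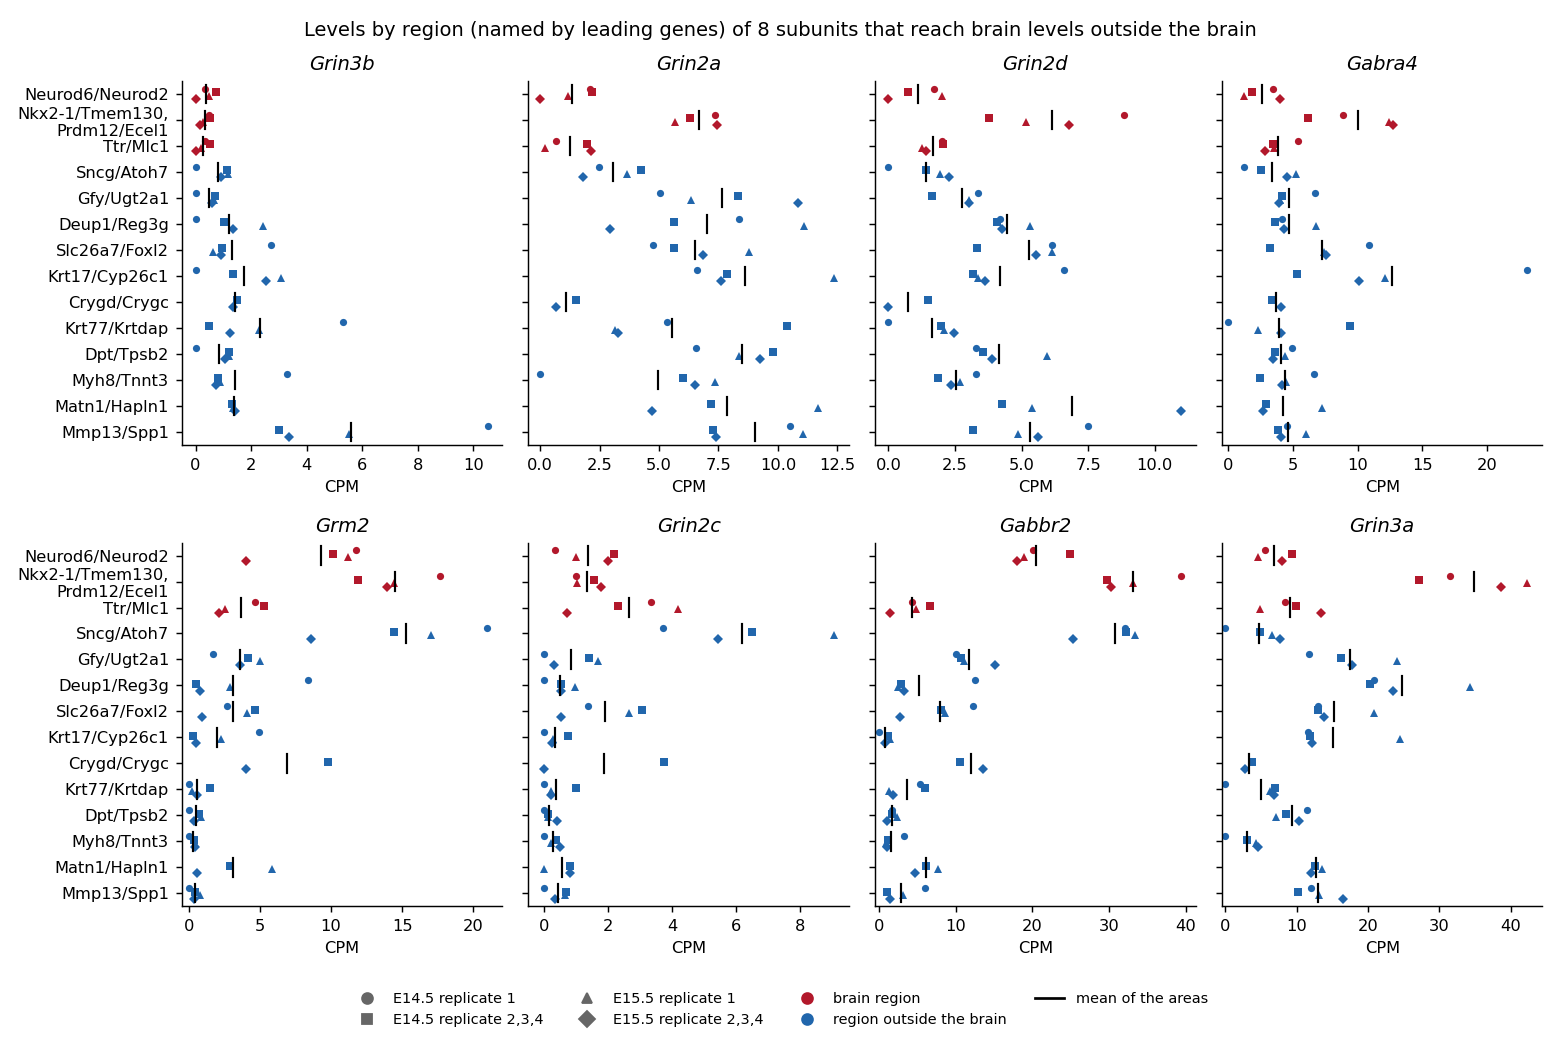
Levels in CPM (horizontal axes, which differ between panels) of 8 members that reach brain levels elsewhere, for 3 brain zones (red) and 11 other regions (blue) named by their leading genes, with 1 symbol for each capture area and a bar for the mean of the areas. Grin3b stands out in the Mmp13/Spp1 region (mean 5.60 CPM), Grm2, Grin2c and Gabbr2 in the Sncg/Atoh7 region, and Gabra4 in the Krt17/Cyp26c1 region.

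The fourth comparison set E15.5 against E14.5, with 2 areas each. In brain spots 0% of 13121 genes were called, and 219 genes had an unadjusted p under 0.05. None of the 37 members tested was called, and 0 had an unadjusted p under 0.05. DESeq2 called 2 genes in brain, neither of them a member. The 5 largest estimates were for Grm5, Gabrb2, Gria2, Gabra4 and Grin1, all higher at E15.5, by 0.82 ± 0.38, 0.72 ± 0.38, 0.58 ± 0.29, 0.57 ± 0.47 and 0.53 ± 0.28 with adjusted p = 1.0. For Grm5 the brain levels were 12.4 and 8.55 CPM at E14.5 and 13.9 and 23.8 CPM at E15.5. For 6 members the values at E15.5 were both higher than those at E14.5, for 1 both lower, and for 31 the stages overlapped. This count was not made over all genes, so it was not read as a change with stage.

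The make-up of the brain spots also differed between areas of a stage. Dorsal spots made up 31.0% and 19.1% of the brain spots at E14.5 and 38.1% and 8.24% at E15.5. The ventral spots made up 40.3% and 47.4% at E14.5 and 34.0% and 71.7% at E15.5. With dorsal, ventral or Ttr/Mlc1 spots compared alone, still 0 members were called. In other tissue 0% of 15421 genes were called, with 233 at an unadjusted p under 0.05 and 11 called by DESeq2. Gabra3, Grm2, Gabbr2, Gria4 and Grm5 had the largest estimates there, at -0.82 ± 0.58, -0.81 ± 0.64, -0.65 ± 0.49, -0.57 ± 0.37 and 0.56 ± 0.84. For the difference between brain and other tissue in the stage change 0% of 14809 genes were called, with 461 at an unadjusted p under 0.05 and 7 called by DESeq2. The largest estimates among members were for Grin3b, Grm2, Gabra3, Gabbr2 and Gabrb1, at -1.07 ± 0.78, 0.98 ± 0.73, 0.84 ± 0.60, 0.71 ± 0.60 and 0.65 ± 0.75. No member was called between stages, which does not show that the stages were alike.

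Finally, the genes that work with these receptors were counted, from 7 lists with 64 genes found. In brain against other tissue 63 were tested, of which 50 were higher and 5 lower, where 38.2% of all genes were higher and 40.9% lower. The largest differences were for Gad1 (log2 fold change 4.03 ± 0.29, adjusted p = 4.6e-05) and Gad2 (log2 fold change 3.69 ± 0.39, adjusted p = 2.4e-04), which make GABA, Slc32a1, which loads it into vesicles (log2 fold change 3.97 ± 0.42, adjusted p = 2.4e-04), and the GABA-A subunits Gabrd (log2 fold change 3.64 ± 0.42, adjusted p = 3.4e-04) and Gabrp, which was lower in brain (log2 fold change -3.9 ± 0.41, adjusted p = 2.3e-04). The 13 auxiliary subunits of AMPA and kainate receptors, among them the Cacng and Shisa families that slow or strengthen channel responses, were all higher, with a median log2 fold change of 2.87. Of 26 scaffold and adhesion genes 23 were higher and 1, Dlg1, was lower, with a median of 1.42. Of 7 genes of GABA synthesis, packing and uptake 6 were higher and 0 lower, with a median of 3.22. Of 9 genes for glutamate supply and uptake 5 were higher and 1 lower, with a median of 0.42. Of the 4 receptor subunits without a number in their name 3 were tested, of which 2 were higher and 1 lower. Of the 2 chloride cotransporters, Slc12a5, which lowers chloride in mature neurons, was higher and Slc12a2, which raises it, did not pass the test (2.7 ± 0.30 and -0.26 ± 0.14). Of the 3 GABA-B auxiliary genes 0 were higher and 2 were lower, Kctd12 and Kctd16 (-1.21 ± 0.17 and -0.64 ± 0.30), while both subunits of the receptor were higher. Only 1 of these 3 auxiliary genes had an unadjusted p under 0.05.

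Between neuron-rich and Ttr/Mlc1 spots, 44 of 60 pathway genes tested were higher and 9 lower, where 34.3% of all genes were higher and 33% lower. The largest differences were for the scaffold Dlg2 (log2 fold change 2.17 ± 0.14, adjusted p = 2.9e-06), the AMPA auxiliary subunit Cacng3 (log2 fold change 2.11 ± 0.15, adjusted p = 3.6e-06) and the transporters Slc6a13 (log2 fold change 1.98 ± 0.42, adjusted p = 0.0026), Slc17a7 (log2 fold change 1.97 ± 0.11, adjusted p = 1.6e-06) and Slc1a6 (log2 fold change 1.86 ± 0.63, adjusted p = 0.028). Slc17a7 loads glutamate into vesicles. The auxiliary subunits had 10 of 13 higher and 2 lower, with a median of 1.05, but the list of GABA synthesis, packing and uptake had 2 of 7 higher and 4 lower, with a median of -0.41. Between the dorsal and ventral zones, 13 of 60 were higher and 36 lower dorsally, where 17% of all genes were higher and 17.4% lower, so that the share of higher genes was near that of all genes. The largest differences were for Cbln4, a synaptic organiser (log2 fold change -3.88 ± 0.28, adjusted p = 2.5e-07), the GABA-A subunit Gabrq (log2 fold change -2.93 ± 0.43, adjusted p = 1.9e-04), the GABA-B auxiliary Kctd16 (log2 fold change -2.65 ± 0.26, adjusted p = 4.4e-06), Gad2 (log2 fold change -2.49 ± 0.14, adjusted p = 3.1e-08) and Slc12a5 (log2 fold change -2.34 ± 0.15, adjusted p = 7.3e-08), all lower dorsally. The GABA synthesis, packing and uptake list had 6 of 7 genes lower dorsally and 0 higher, with a median of -2.0, and the auxiliary subunits 8 of 13 lower and 3 higher, with a median of -0.31. The receptor and pathway counts come from the same spots and areas.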

How the data were processed

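Spatial RNA sequencing (10x Visium on formalin-fixed, paraffin-embedded sections) measured 4 capture areas of mouse heads. The UMI counts per gene and spot were deposited by the authors as unnormalised filtered matrices. The matrix headers give Space Ranger 1.3.1 for both replicate 1 areas and 2.0.0 for the other 2. The submitters' processing notes give the genome build mm10. The probe set and annotation release are not given in the sources used here. Tissue positions came with the matrices, and 19 barcodes off the tissue were dropped. No column belonged to another series.

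Counts were summed over all tissue spots of a region in each area. Regions came from k-means with 18 clusters and 20 starts (30 principal components, 2000 variable genes), with 107 receptor and pathway genes held out. Each was put on the brain side, the other side or the border by markers. Clusters whose median depth was under 0.3333 times that of their own areas were left out, as were border clusters, and this choice was made after seeing the data. Doublet calling does not apply to spots that hold several cells.

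The sums were tested with edgeR's quasi-likelihood test (edgeR 4.0.16, R 4.3.3) after TMM scaling and filterByExpr, with the area as a block for contrasts within areas. Benjamini-Hochberg adjustment ran over all genes tested, with a threshold of 0.1. Standard errors are those of the fitted log2 fold changes. Alternatives were DESeq2 1.42.0 and its size factors, no TMM, no filter, a threshold of 0.05, a minimum log2 fold change of 1 in the test, sums per section, interior and distant spots, spots thinned to 1000 UMIs, and leaving out each area. Alternatives chosen after seeing the data were low-depth spots or border spots counted as other tissue, single brain zones for the stage comparison, and leaving out each area for the difference of stage changes. The scripts were tested on simulated counts with 200 changed genes. In every comparison, false calls made up a larger share of the simulated calls than the threshold of 0.1. Other tools were limma 3.58.1, Python 3.11.15, scikit-learn 1.9.0 and scipy 1.17.1.

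A region with under 20 spots in an area gave no value for it. A count of 0 was read as up to 3 counts, which covers counting error only. Named with values were, in brain against other tissue, the members of highest and lowest fold in each class and a fixed list that includes Gria2, Grin1, Grin2a, Grin2b, Gabra2 and Gabbr1, then every member called within the brain, the 5 largest estimates between stages, members at or above their brain level outside the brain in 3 or more areas, and the 5 pathway genes that differed most in each contrast. Of the members, 5 that entered the fits and counts are not reported here by name. Further members given in a clause were chosen after their values were seen. The members, pathway genes, markers and lists were chosen with earlier results of these data known. Same-numbered areas are not stated to share an animal.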

Additional observations from a re-analysis of the deposited data

Results flagged for a closer look

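Over the described members and the 3 contrasts within areas, 111 groups of 4 area ratios (log2 of CPM + 1 in one zone over the other) were examined for an area far from the other 3, and 5 were found, where chance gives about 1 in 20. For Gabbr1, brain over other tissue was 1.0643 in E15.5 replicates 2, 3 and 4 and 0.8327 to 0.8577 in the other areas. For Gabra2, neuron-rich over Ttr/Mlc1 spots was 1.0523 in E14.5 replicates 2, 3 and 4 and 1.6046 to 1.7152 in the others. For Gria1 the same ratio was 1.3876 in E14.5 replicates 2, 3 and 4 and 1.809 to 1.8876 in the others. For Grm8, dorsal over ventral was -1.3032 in E15.5 replicates 2, 3 and 4, which had 23 dorsal spots, and -2.1384 to -2.0307 in the others. For Gabrg3 it was -0.8475 in E14.5 replicates 2, 3 and 4, the only area with dorsal UMIs of this gene, and -2.1504 to -2.0254 in the others. All 5 kept the direction of the other 3 areas.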

How the results depend on the processing

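No result turned its direction under any alternative run. Brain against other tissue had 20 members higher and 0 lower when each spot was thinned to 1000 UMIs, with 15 members then under the filter on low counts, and 2806 genes higher and 3324 lower over all genes. Against a log2 fold change of 1 it had 1691 genes higher and 2924 lower, with 22 members higher and 1 lower. Leaving out 1 area gave 30 to 33 members higher and 1 to 2 lower. In neuron-rich against Ttr/Mlc1 spots the lower members were 0 with DESeq2 and 0 to 1 without 1 area. In dorsal against ventral spots the genes higher dorsally were 1217 with DESeq2, 1254 with sums per section and 1280 to 1767 without 1 area (1573 without E14.5 replicate 1). Between stages in brain, genes higher and lower at E15.5 were 0 and 2 with DESeq2, 13 and 92 without the filter, and 0 to 12 and 2 to 35 without 1 area. In other tissue they were 9 and 2 with DESeq2, 16 and 4 without the filter, and 0 to 17 and 0 to 36 without 1 area. For the difference of stage changes they were 0 and 7 with DESeq2, and 0 to 8 and 0 to 225 without 1 area, the last without E15.5 replicates 2, 3 and 4. An area left alone in its stage was assumed to vary like the others, and no member was called between stages in any of these fits. With a replicate block the stage fits had 14 and 51 genes higher and lower in brain and 12 and 9 in other tissue, with 0 members, but the deviations of same-numbered areas correlated at 0.294 and 0.132 with only 2 pairs, so the numbers were not taken as a pairing. The cause was not tested for these changes other than the smaller number of genes tested or of areas. Named single genes were followed in the contrasts of brain, neuron-rich and dorsal spots. There 474, 284 and 287 values stayed on their side of the threshold. The call was lost by 33, 12 and 9 values and gained by 4, 0 and 1. The genes followed in neuron-rich spots were only those called, so none of them could gain a call. Of the other members there, Grik3 and Grik2 gained it in the runs given above. With interior spots 6 region levels moved by more than the SD between areas. Grik4, Grm7 and Grm8 lost the call for brain without TMM, which moved the median of all genes from -0.03 to -0.16. The shallow E14.5 replicate 1 area and the 23 dorsal spots of E15.5 replicates 2, 3 and 4 limit the precision for genes of few UMIs.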
